A study of Mus musculus with 20 samples.

Results

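The 9 genes described here were Tlr2, Tlr4, Tlr7, Cd14, Myd88, Nlrp3, Pycard, Casp1 and Gsdmd, which cover Toll-like receptor signalling and the NLRP3 inflammasome. They were chosen by name, as the entries with these symbols in 2 deposited tables of mouse kidney gene counts that together held 39898 symbols. All 9 were present in both tables and all 9 had enough counts to be tested in both.

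LOY stands for loss of the Y chromosome, here in the blood-forming system. Aged mice had been given a bone marrow transplant that made their hematopoietic cells either LOY or Control, and total RNA of the kidney was sequenced from 1 library per animal. The first table held 6 LOY kidneys (animals 5, 8, 9, 10, 14 and 18) and 6 Control kidneys (animals 3, 11, 12, 13, 16 and 17). In the second table every kidney came from a LOY animal: 4 had received ABT-263 (animals 15, 16, 17 and 18) and 4 a control compound (animals 6, 8, 9 and 10). ABT-263, also called navitoclax, is a senolytic, a compound that blocks survival proteins of the BCL-2 family and is used to remove senescent cells. The labels used here do not state strain, sex, age beyond the word aged, dose, schedule or how the LOY cells were made, and the kidney's own cells were not described as LOY. The RNA came from kidney tissue with all its cell types, so fewer cells of a type and less RNA per cell cannot be told apart in any of the values below.

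Toll-like receptors bind conserved molecules of microbes and of damaged cells. TLR2 senses lipoproteins and TLR4 senses lipopolysaccharide, which CD14 hands over to it, while TLR7 reads single-stranded RNA in endosomes, and all 3 signal through the adaptor MyD88 to NF-kB. NLRP3 is a cytosolic sensor that assembles with ASC (the product of Pycard) and caspase-1 into the inflammasome, where caspase-1 matures interleukin-1 beta and interleukin-18 and cuts gasdermin D, which then forms pores in the cell membrane. Resident macrophages and infiltrating myeloid cells carry much of this machinery in the kidney, and tubular cells express parts of it.

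In the GENCODE M21 annotation of GRCm38, Tlr2 lies on chromosome 3 (83836272 to 83841767, minus strand), Tlr4 on chromosome 4 (66827584 to 66930284, plus strand) and Tlr7 on chromosome X (167304929 to 167330558, minus strand). Myd88 lies on chromosome 9 (119335934 to 119341411, minus strand). Nlrp3 lies on chromosome 11 (59541568 to 59566956, plus strand), Pycard on chromosome 7 (127989708 to 127993867, minus strand), Casp1 on chromosome 9 (5298517 to 5307265, plus strand) and Gsdmd on chromosome 15 (75862327 to 75867408, plus strand). Exons of Myd88 share 290 bases with Acaa1a, and exons of Pycard share 485 bases with Gm45205, both on the opposite strand. The strand setting of the counting is not given in the sources used here, so reads from these stretches cannot be assigned with certainty.

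RefSeq promoter windows (GRCm38.p6, 250 bases before the start) were at hand for 5 of the 9 genes, and those of Tlr2, Myd88 and Pycard are shown as the 3 that hold a match to a motif of a factor of innate immune or myeloid genes and whose gene was at an unadjusted p under 0.05 for LOY against Control. Of the others, the windows at 2 starts of Nlrp3 held 2 matches to the PU.1 motif and 1 to the NF-kB consensus, and that of Casp1 held no match. Bases inside the gene's own GENCODE exons were left out, so 91 bases are shown for Tlr2 (chr3:83841768-83841858, minus strand), 227 for Myd88 (chr9:119340042-119340268, minus strand) and 250 for Pycard (chr7:127993868-127994117, minus strand). The windows lie before RefSeq starts, and that of Myd88 lies inside the Myd88 gene of GENCODE (119335934 to 119341411), not before it. The same holds for the Nlrp3 window at 59542436 to 59542685. Capitals mark the motif matches, and all are written 5′ to 3′ on the gene's strand.
Tlr2: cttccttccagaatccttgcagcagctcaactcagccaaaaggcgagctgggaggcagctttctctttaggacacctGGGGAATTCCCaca
Myd88: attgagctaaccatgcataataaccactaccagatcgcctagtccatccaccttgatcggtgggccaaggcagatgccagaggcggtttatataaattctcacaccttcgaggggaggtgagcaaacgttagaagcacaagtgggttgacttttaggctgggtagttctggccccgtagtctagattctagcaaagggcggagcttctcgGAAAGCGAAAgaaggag
Pycard: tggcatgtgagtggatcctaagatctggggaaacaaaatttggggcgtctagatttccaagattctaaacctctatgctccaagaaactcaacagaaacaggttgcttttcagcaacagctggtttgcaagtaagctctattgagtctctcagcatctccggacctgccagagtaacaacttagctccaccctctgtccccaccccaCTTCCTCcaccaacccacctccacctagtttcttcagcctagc
The capitals in Tlr2 are 2 overlapping matches to the NF-kB consensus, those in Myd88 are 1 match to the interferon regulatory factor motif (GAAA, any 2 bases, GAAA), and those in Pycard are 1 match, on the other strand, to the PU.1 motif GAGGAAG. Both strands were searched, and TGANTCA (AP-1) was searched as well. Of 32536 RefSeq promoter windows of the same length, 7.28% held the NF-kB consensus, 2.98% the interferon regulatory factor motif, 10.7% the PU.1 motif and 6.73% the AP-1 motif, so a match is a description of these letters and not evidence of binding.

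Counts were scaled to library size as CPM, a gene's share of the library's counts, with trimmed-mean (TMM) factors. Levels of different genes are compared here per kilobase (kb) of coding-transcript exon, as means ± SD over 6 kidneys a group. Myd88 was the most abundant of the set, with 16.8 ± 1.48 CPM per kb in LOY kidneys and 12.1 ± 1.97 CPM per kb in Control kidneys. Cd14 came next with 15.7 ± 4.0 CPM per kb in LOY kidneys and 8.16 ± 2.81 CPM per kb in Control kidneys. Gsdmd had 7.72 ± 2.81 CPM per kb in LOY kidneys and 4.0 ± 1.56 CPM per kb in Control kidneys. The adaptor, the co-receptor and the pore protein thus had the highest means per kb. Pycard (4.59 ± 1.5), Tlr2 (3.10 ± 0.558) and Casp1 (2.75 ± 0.866 CPM per kb in LOY kidneys) lay between them, followed by Tlr7 (1.11 ± 0.495) and Tlr4 (1.11 ± 0.384 CPM per kb in LOY kidneys). Nlrp3 was lowest, with 0.274 ± 0.0935 CPM per kb in LOY kidneys and 0.224 ± 0.0811 CPM per kb in Control kidneys. In both groups the ranges of neighbours in this order overlapped, except that Nlrp3 lay wholly below the gene ranked before it. Nlrp3 thus rested on few reads, 6 to 23 counts per LOY kidney and 7 to 22 per Control kidney. The value of Pycard depends on its 3800 bases of annotated exon, and so does its place below Gsdmd. Before scaling by length, Pycard had 17.5 ± 5.72 CPM and Gsdmd 13.8 ± 5.04 CPM in LOY kidneys. In Control kidneys these were 11.0 ± 0.864 and 7.17 ± 2.79 CPM.

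In LOY kidneys all 9 genes had a positive log2 fold change against Control, beside 52.3% of all 14978 genes tested, with a median of 0.67 for the 9 and 0.02 for all. By edgeR's quasi-likelihood fit, 0 of the 9 reached the adjusted p of 0.05 that was the threshold, beside 1.18% of all genes (176, of which 167 were higher in LOY). At an unadjusted p under 0.05, 7 of the 9 were higher in LOY, beside 13.5% of all genes. DESeq2 called 5 of the 9 higher (Tlr2, Cd14, Myd88, Pycard and Gsdmd), beside 4% of all genes. The voom fit of limma, with weights for sample quality, called 5 higher (Tlr2, Tlr7, Cd14, Myd88 and Gsdmd), beside 4.6% of all genes. In none of the 9 did the LOY and Control kidneys separate fully, whereas 1.56% of all genes had every LOY kidney above every Control kidney. The 9 genes share kidneys and partly share cells of origin, so they are not 9 independent observations.

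**Figure D1:**
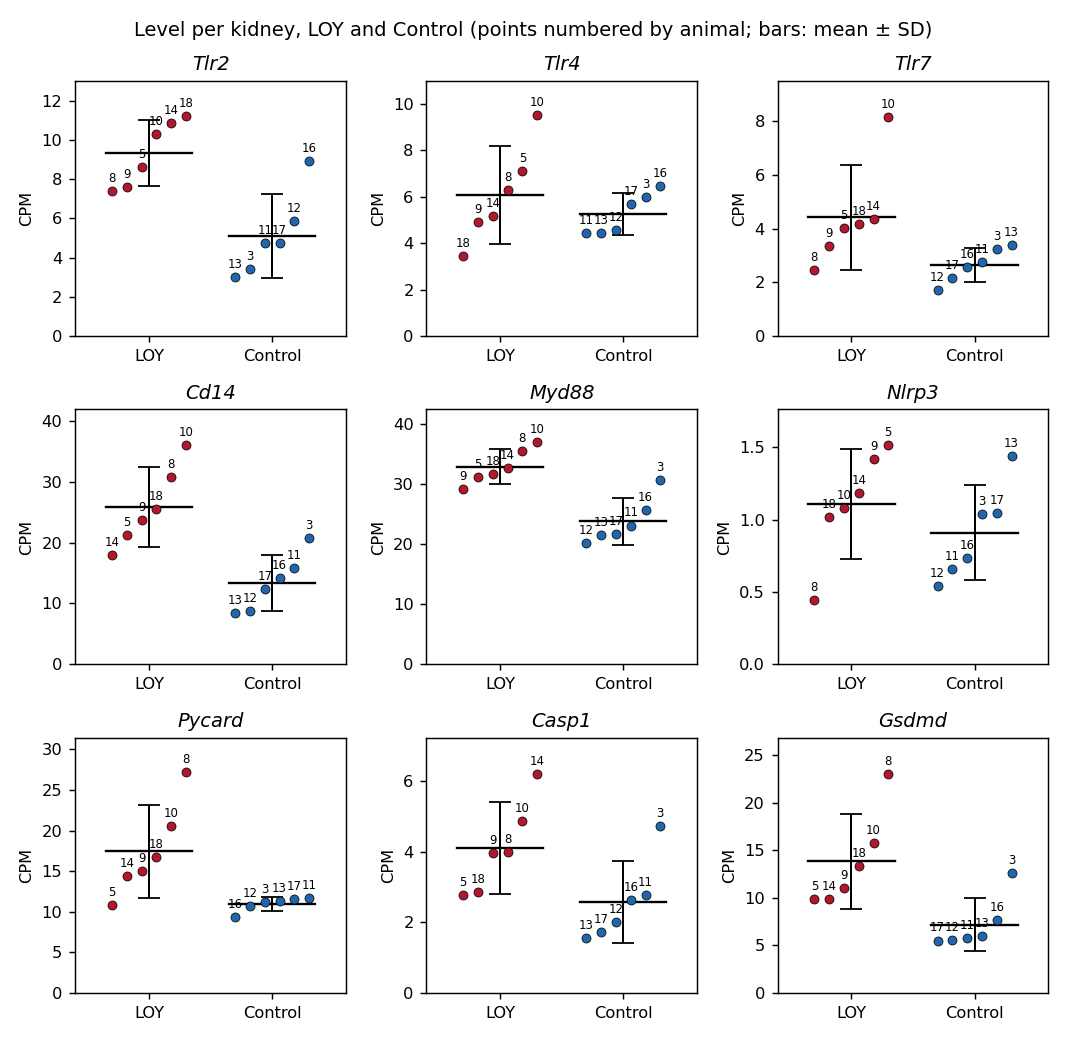
CPM of each of the 9 genes in the 6 LOY kidneys (red, left) and the 6 Control kidneys (blue, right); points are numbered by animal, the horizontal bar is the mean and the whiskers are ± SD. For Cd14, Myd88 and Pycard, 5 of 6 LOY kidneys lie above the highest Control kidney, while for Nlrp3 1 does.

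Among the receptors, Tlr2 had 7.40, 9.47 and 11.2 CPM as the lowest, median and highest LOY kidney, against 3.01, 4.75 and 8.95 CPM in Control kidneys. Control animal 16 alone of its group reached the LOY range, and 3 LOY kidneys (animals 10, 14 and 18) lay above it. For Tlr2 the log2 fold change was 0.87 ± 0.24 (SE; edgeR adjusted p = 0.0873). Tlr7 had 2.44, 4.10 and 8.16 CPM in LOY kidneys (lowest, median and highest), against 1.71, 2.67 and 3.40 CPM in Control kidneys. LOY animal 10 stood apart at the top, and 4 LOY kidneys were above every Control kidney. For Tlr7 the log2 fold change was 0.74 ± 0.28 (edgeR adjusted p = 0.164), and 0.46 without LOY animal 10 (adjusted p = 0.294). Tlr4 spanned 3.45, 5.74 and 9.51 CPM in LOY kidneys and 4.42, 5.13 and 6.45 CPM in Control kidneys. The LOY kidneys lay on both sides of the Control range, with animals 5 and 10 above it and animal 18 below it. Its log2 fold change was 0.21 ± 0.23 (edgeR adjusted p = 0.573), it was -0.26 among animals numbered above 10 and -0.048 without LOY animals 8 and 10, so no direction can be given for Tlr4.

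Cd14, which presents lipopolysaccharide to TLR4 and lies on chromosome 18 (36725067 to 36726798, minus strand), had 17.9, 24.6 and 36.0 CPM in LOY kidneys (lowest, median and highest), against 8.43, 13.3 and 20.7 CPM in Control kidneys. LOY animal 14 was the only LOY kidney within the Control range, whose top was set by Control animal 3. The means were 25.8 ± 6.56 CPM in LOY and 13.4 ± 4.6 CPM in Control kidneys (SD, n = 6 each), and the log2 fold change of 0.95 ± 0.22 missed the threshold (edgeR adjusted p = 0.0522). Myd88, the adaptor shared by most Toll-like receptors and the interleukin-1 receptors, had 29.2, 32.1 and 37.0 CPM in LOY kidneys, against 20.2, 22.4 and 30.7 CPM in Control kidneys. Again 5 LOY kidneys were above every Control kidney, and LOY animal 9 overlapped with Control animal 3. Its difference was the most narrowly measured of the 9, with a log2 fold change of 0.46 ± 0.12 (edgeR adjusted p = 0.062). Without Control animal 3 both passed, Cd14 at 1.11 (edgeR adjusted p = 0.016) and Myd88 at 0.55 (adjusted p = 0.0163). In that fit 607 of 15120 genes passed. Neither gene passed on leaving out any other single kidney. The highest edgeR adjusted p, without Control animal 12, was 0.151 for Cd14 and 0.186 for Myd88.

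Of the inflammasome genes, Gsdmd had 9.89, 12.2 and 23.0 CPM in LOY kidneys (lowest, median and highest), against 5.51, 5.84 and 12.6 CPM in Control kidneys. Control animal 3 stood apart from the other 5 Control kidneys, which reached 7.63 CPM at most, and LOY animal 8 was the highest of all. The log2 fold change was 0.95 ± 0.26 (edgeR adjusted p = 0.0842), and 1.18 without Control animal 3 (adjusted p = 0.0164). Gsdmd passed on leaving out no other single kidney, and was at 0.88 without Control animal 12 (adjusted p = 0.22). Pycard, the adaptor ASC, had 10.9, 15.9 and 27.2 CPM in LOY kidneys, against 9.39, 11.2 and 11.7 CPM in Control kidneys. The Control kidneys were tightly grouped and LOY animal 5 was the only LOY kidney among them, with animals 8 and 10 the highest. For Pycard the log2 fold change was 0.67 ± 0.19 (edgeR adjusted p = 0.0896), 0.76 without LOY animal 5 (adjusted p = 0.0485) and 0.36 without LOY animals 8 and 10, a choice made after the data were seen (adjusted p = 0.258). In the fit without LOY animal 5, 188 of 15136 genes passed.

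Casp1, the inflammasome protease, had 2.77, 3.98 and 6.22 CPM in LOY kidneys and 1.57, 2.33 and 4.73 CPM in Control kidneys. Control animal 3 was within the upper LOY values, and LOY animals 10 and 14 alone exceeded it. Its log2 fold change was 0.67 ± 0.29 (edgeR adjusted p = 0.199). Nlrp3, the sensor, had 0.444, 1.13 and 1.52 CPM in LOY kidneys and 0.543, 0.884 and 1.44 CPM in Control kidneys. The groups covered nearly the same range, with LOY animal 8 the lowest kidney of all and LOY animal 5 the highest. The log2 fold change of 0.28 ± 0.35 (edgeR adjusted p = 0.624) had a 95% interval of the fold from 0.727 to 2.03, which holds both a fall and a rise.

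**Figure D2:**
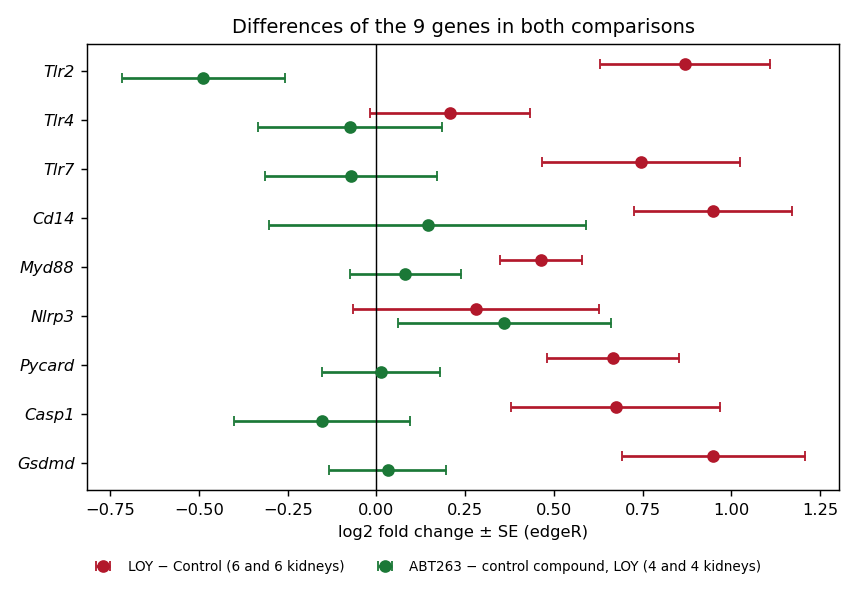
Log2 fold change ± SE (edgeR) of the 9 genes for LOY against Control (red) and for ABT-263 against the control compound in LOY animals (green); the line at 0 marks no difference. All 9 red points lie right of 0, from 0.21 (Tlr4) to 0.95 (Cd14 and Gsdmd), and the green points range from -0.49 (Tlr2) to 0.36 (Nlrp3).

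Animal numbers were not spread evenly over the groups, since 2 of 6 LOY and 5 of 6 Control kidneys had a number above 10; the labels do not say what the numbers stand for. With number above 10 as a term, 0 of the 9 genes passed edgeR and 5 were higher at an unadjusted p under 0.05, beside 5.96% of all genes. Among the animals numbered above 10 alone (2 LOY and 5 Control kidneys) Myd88 (0.52, adjusted p = 0.0227) and Gsdmd (0.94, adjusted p = 0.0149) rose, beside 2.27% of all genes, and 7 of the 9 were higher at an unadjusted p under 0.05, beside 8.82% of all genes.

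Beyond the 9, a list of 74 other genes of these pathways was examined, of which 65 had enough counts for a test in the LOY table. In LOY kidneys 5 of the 65 rose and 0 fell by edgeR, beside 1.11% higher and 0.0601% lower among all genes. DESeq2 called 10 higher and 0 lower, beside 4% higher and 1.78% lower among all genes, and voom called 12 higher and 0 lower, beside 4.6% higher and 2.49% lower. At an unadjusted p under 0.05 by edgeR, 28 of the 65 were higher and 4 lower, beside 13.5% higher and 9.33% lower among all genes. The median log2 fold change over the 65 was 0.35. The genes that rose were a receptor, a partner of another Toll-like protein, a chaperone, a caspase and a cytokine. Tlr1, which pairs with TLR2 to sense triacylated lipoproteins, had 4.71, 5.36 and 6.80 CPM in LOY kidneys (lowest, median and highest), against 1.86, 2.80 and 3.70 CPM in Control kidneys. Its groups did not overlap, and the log2 fold change was 0.96 ± 0.20 (edgeR adjusted p = 0.0343). Ly86 encodes MD-1, the partner of the Toll-like protein RP105, and had 6.24, 10.9 and 14.1 CPM in LOY kidneys, against 3.19, 4.56 and 6.66 CPM in Control kidneys (1.17 ± 0.26, adjusted p = 0.0457). Unc93b1, the chaperone that carries TLR7 and other nucleic-acid receptors to endosomes, had 52.0, 58.8 and 77.8 CPM in LOY kidneys, against 29.1, 39.7 and 52.9 CPM in Control kidneys (0.64 ± 0.14, adjusted p = 0.0483). These co-receptor genes overlapped between the groups at the edges of their ranges.

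Casp4, the mouse caspase-11 gene, whose product senses cytosolic lipopolysaccharide and also cuts gasdermin D, had 6.33, 7.86 and 16.1 CPM in LOY kidneys (lowest, median and highest), against 2.81, 4.13 and 5.65 CPM in Control kidneys. Every LOY kidney was above every Control kidney, and the log2 fold change was 1.22 ± 0.27 (edgeR adjusted p = 0.0455). Il1b, the cytokine matured by caspase-1, had 2.15, 2.94 and 3.43 CPM in LOY kidneys, against 0.523, 1.01 and 1.74 CPM in Control kidneys. These groups were separate as well, with a log2 fold change of 1.39 ± 0.30 (edgeR adjusted p = 0.0432). Il1b rested on few reads, 279 counts over the 6 LOY kidneys together and 99 over the 6 Control kidneys. All 5 genes lost the call when 1 of several kidneys was left out. The count was 0 without Control animal 11, 12, 13, 16 or 17 and without LOY animal 10. In those fits 19 to 29 of 65 to 68 pathway genes were higher at an unadjusted p under 0.05, beside 1336 to 1726 of 15067 to 15142 genes. The count was 1 without LOY animal 9 (Ly86), 1 without LOY animal 14 (Casp4) and 9 without Control animal 3. With animal number as a term it was 0, with 20 higher at an unadjusted p under 0.05, beside 5.96% of all genes.

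**Figure D3:**
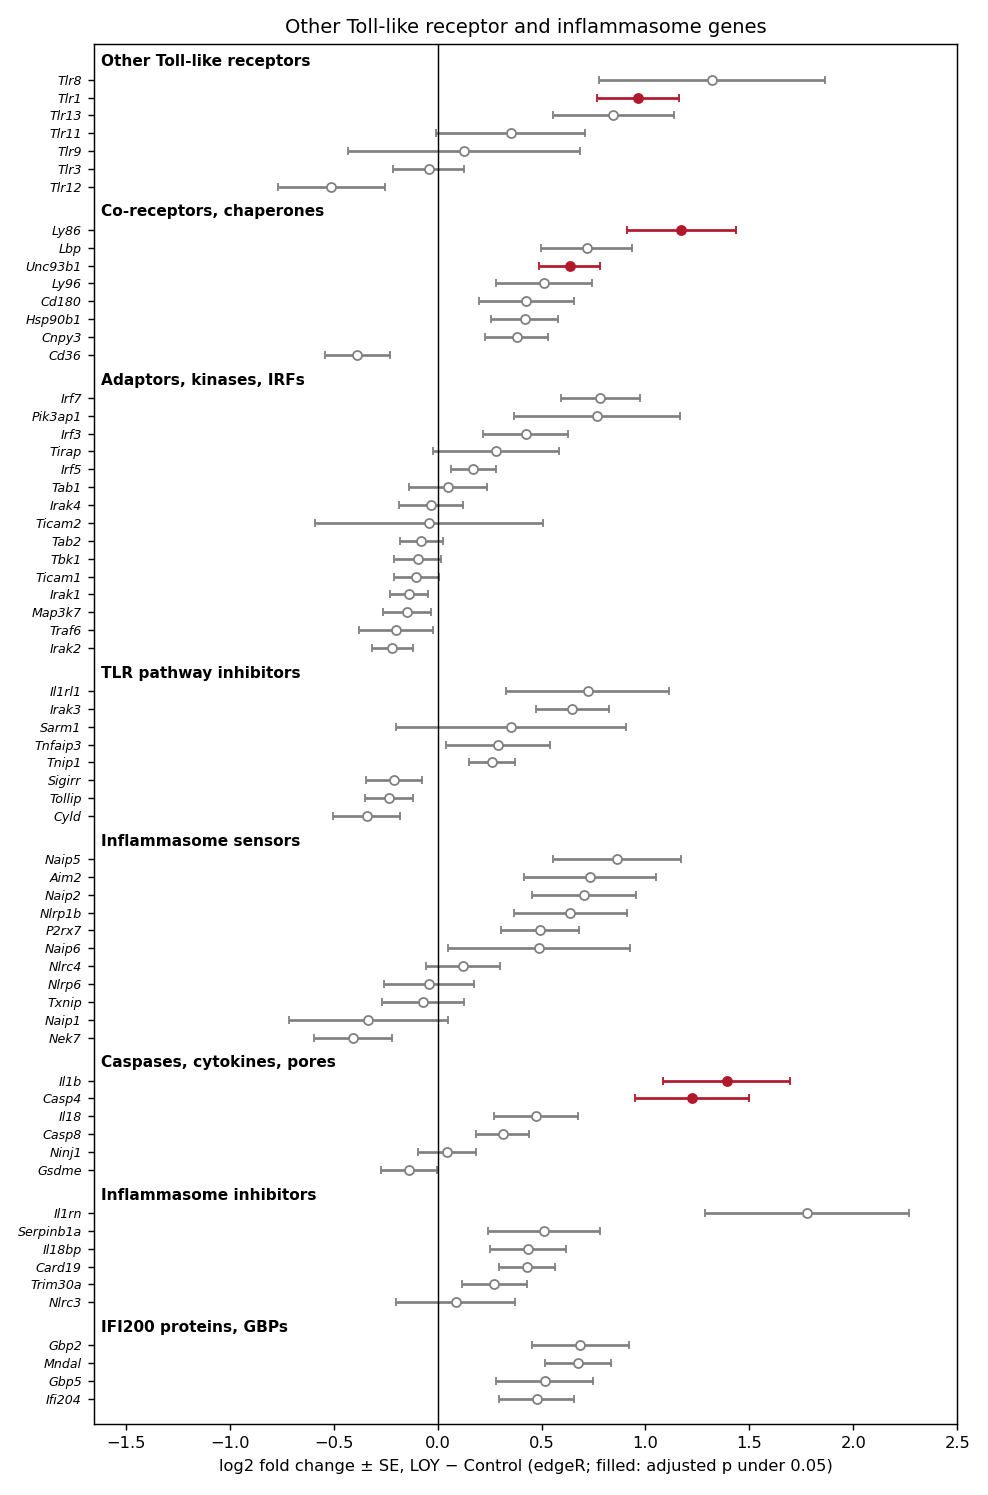
Log2 fold change ± SE (LOY minus Control, edgeR) of the 65 other pathway genes tested, grouped by role; filled red points have an adjusted p under 0.05. The 5 filled points are Tlr1, Ly86, Unc93b1, Casp4 and Il1b, from 0.64 to 1.39, while the adaptors and kinases scatter about 0 with a median of -0.04.

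By role, the lists had these median log2 fold changes, which were not tested against each other. The 8 co-receptors and chaperones had a median of 0.47, with 7 positive and Cd36, a scavenger receptor also made by other cells, at -0.39 ± 0.16 (edgeR adjusted p = 0.178). The 7 other Toll-like receptors that were tested had a median of 0.35, and Tlr12 had a value of -0.51 ± 0.26 (adjusted p = 0.241). The 15 adaptors, kinases and interferon regulatory factors downstream of the receptors had a median of -0.04, with 6 positive and 9 negative. Their smallest p was that of Irf7, the interferon regulatory factor downstream of TLR7 (43.3 ± 15.3 CPM in LOY and 25.2 ± 4.04 CPM in Control kidneys; 0.78 ± 0.19, adjusted p = 0.0577). Every LOY kidney was above every Control kidney for Irf7, which DESeq2 and voom both called.

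Among the 11 inflammasome sensors and regulators tested, the median was 0.49 and the smallest p was that of Naip2 (0.71 ± 0.25, edgeR adjusted p = 0.147), whose reads can be split with its near-identical Naip copies. The 6 inflammasome inhibitors tested were all positive with a median of 0.43, led by Il1rn, the interleukin-1 receptor antagonist (4.0 ± 2.39 CPM in LOY and 1.17 ± 0.958 CPM in Control kidneys; 1.78 ± 0.49, adjusted p = 0.0871). The 8 inhibitors of Toll-like receptor signalling had a median of 0.28, and Irak3, which blocks the kinases behind MyD88, had 0.65 ± 0.18 (adjusted p = 0.0856). Of the 4 tested interferon-inducible IFI200 and guanylate-binding genes all were positive, with a median of 0.60, and Mndal was nearest the threshold (0.68 ± 0.16, adjusted p = 0.0506), a gene with close relatives among which reads can be split. The remaining 9 of the 74 genes had too few counts: Tlr5, Tlr6, Tnip3, Nlrp1a, Mefv, Il1a, Nlrp10, Ifi205 and Ifi202b, the last with no count in any kidney.

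Sums of marker genes of several cell types were also compared between the groups. The summed level of 14 macrophage markers was 487 to 682 CPM in LOY kidneys and 322 to 454 CPM in Control kidneys, without overlap. Of the 14, 13 had a positive log2 fold change and 6 rose (Lyz2, C1qa, C1qc, Mrc1, Aif1 and Mpeg1), beside 1.11% of all genes. Csf1r was near 0 (0.05 ± 0.11, edgeR adjusted p = 0.817) and Mertk was negative (-0.36 ± 0.18, adjusted p = 0.243). With group means subtracted, the Pearson r of the macrophage sum with the 9 genes ran from -0.27 (Tlr2) to 0.74 (Myd88). T cell markers summed to 18.3 to 29.1 CPM in LOY kidneys and 8.99 to 12.7 CPM in Control kidneys. Of these 6 markers 2 rose (Cd3d and Cd3g), beside 1.11% of all genes. Kidney tissue was recognisable in every library by its proximal tubule markers, whose sum was 7177 to 16068 CPM in LOY kidneys and 14835 to 20120 CPM in Control kidneys. Tubular injury markers summed to 3506 to 8617 CPM in LOY kidneys and 1754 to 3537 CPM in Control kidneys. Of these 6 markers 5 rose (Havcr1, Lcn2, Krt20, Vcam1 and Spp1), beside 1.11% of all genes. Neutrophil markers summed to 4.76 to 13.4 CPM in LOY kidneys and 3.37 to 7.39 CPM in Control kidneys, with Ly6g, Cxcr2, Retnlg, Camp, Ngp, Ltf and Mpo at 0 in some kidneys. Plasmacytoid dendritic cell markers, of the cell type best known for TLR7, summed to 5.33 to 16.6 CPM in LOY kidneys and 3.57 to 13.7 CPM in Control kidneys, with Siglech at 0 in some kidneys. Most of the mean sum was Ly6d alone (6.53 ± 3.67 CPM in LOY and 4.05 ± 3.65 CPM in Control kidneys). Siglech and Ccr9 had too few counts for a test. B cell markers summed to 4.89 to 18.3 CPM in LOY kidneys and 2.94 to 10.8 CPM in Control kidneys, with Ms4a1, Pax5 and Fcer2a at 0 in some kidneys. Endothelial markers summed to 203 to 327 CPM in LOY kidneys and 215 to 313 CPM in Control kidneys, and mesenchymal markers to 374 to 694 CPM in LOY kidneys and 247 to 448 CPM in Control kidneys. The part of these cell types in the differences of the 9 genes was not tested.

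Some kidneys that stood out for several of the 9 genes also stood out for some of these sums. LOY animals 8 and 10, highest for Gsdmd, Pycard, Cd14 and Myd88, had the lowest proximal tubule sums (9694 and 7177 CPM), and LOY animal 10 had the highest injury and macrophage sums (8617 and 682 CPM). The library of LOY animal 8 had a count for 16639 genes, beside 17829 to 18544 genes in the other kidneys of its table. The injury and macrophage sums of LOY animal 8 (4652.5 and 595 CPM) lay within those of the other LOY kidneys. So did the injury and proximal tubule sums of LOY animal 14 (3851 and 15465 CPM), the kidney highest for Casp1. Control animal 3, highest of its group for Cd14, Myd88, Casp1 and Gsdmd, had the highest injury and macrophage sums of the Control kidneys (3537 and 454 CPM). Tlr2 did not follow this order, since LOY animal 18 and Control animal 16 were its highest kidneys, and Nlrp3 was lowest in LOY animal 8. The part of tissue state or of library quality in these values was not tested.

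**Figure D4:**
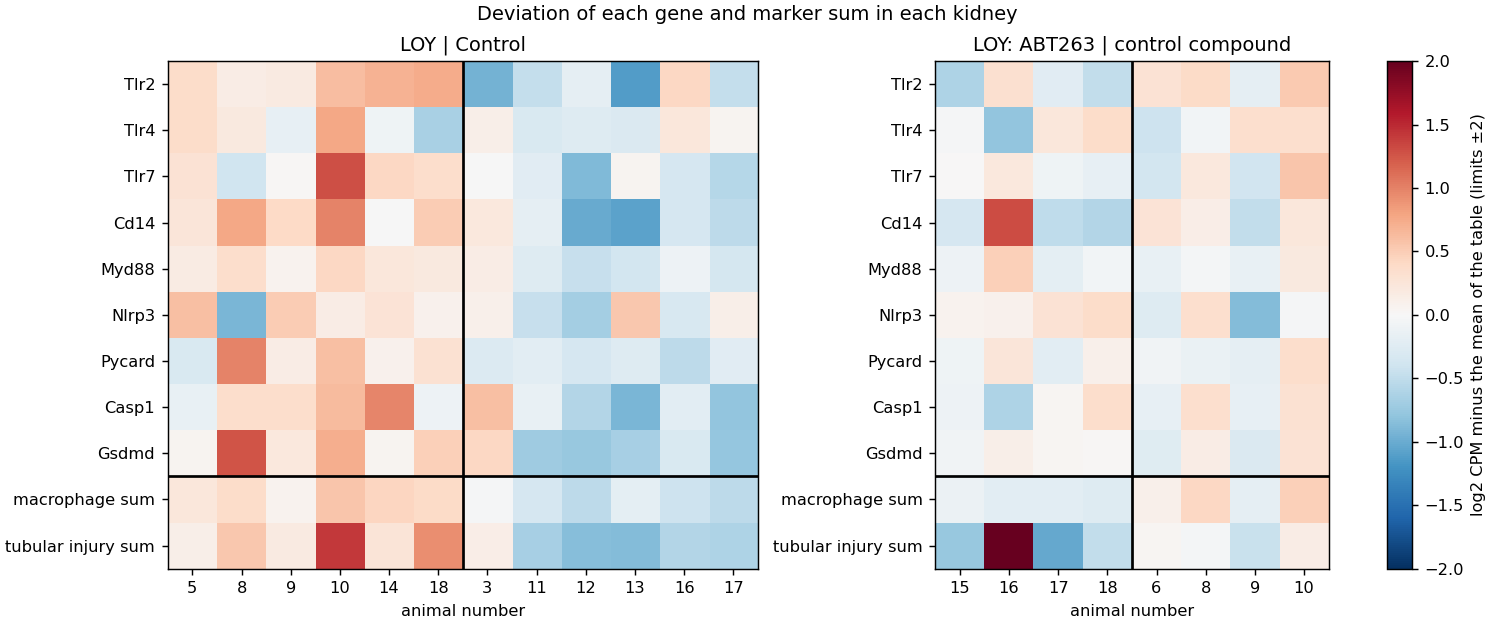
Log2 CPM of each gene in each kidney minus its mean over the table, with the log2 summed macrophage and tubular injury markers below the line; the LOY (left) and Control kidneys are in the first panel and the ABT-263 (left) and control-compound kidneys of LOY animals in the second, and colours end at ±2. LOY animals 8 and 10 are red for Cd14, Pycard and Gsdmd, Control animal 3 is red for Casp1 and Gsdmd, and ABT-263 animal 16 is red for Cd14, Myd88 and the injury sum.

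Across the 12 kidneys of the LOY table, with group means subtracted, the gene whose log2 CPM was most like its own is given for 8 of the 9 genes; these are descriptions of kidneys that share libraries and tissue state, picked as the top of 14978 genes. The most alike gene was Dysf for Cd14 (Pearson r = 0.97), Zc3h12a for Pycard (r = 0.96), Ptpn23 for Gsdmd (r = 0.95), Prkar2b for Myd88 (r = 0.93) and Irf2 for Tlr7 (r = 0.93). It was Zfp930 for Tlr4 (r = 0.92), Poldip3 for Nlrp3 (r = 0.90) and Col8a1 for Casp1 (r = 0.90). These 8 nearest genes were all different, and none was another of the 9.

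In LOY animals given ABT-263, against the control compound, 0 of the 9 genes passed edgeR and 0 were at an unadjusted p under 0.05, beside 0% and 5.91% of the 16956 genes tested. DESeq2 and voom called 0 of the 9 as well, beside 0.259% of all genes called by DESeq2 and 0.0649% by voom. All ABT-263 animals had a number above 10 and no control-compound animal did, so animal number and treatment cannot be told apart in this table. The log2 fold changes had a median of 0.01, with 5 positive (beside 49.4% of all genes) and 4 negative. The groups overlapped for each of the 9, whereas all ABT-263 kidneys were above all control-compound kidneys for 2.04% of all genes and below them for 2.25%. The largest in size was that of Tlr2.

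**Figure D5:**
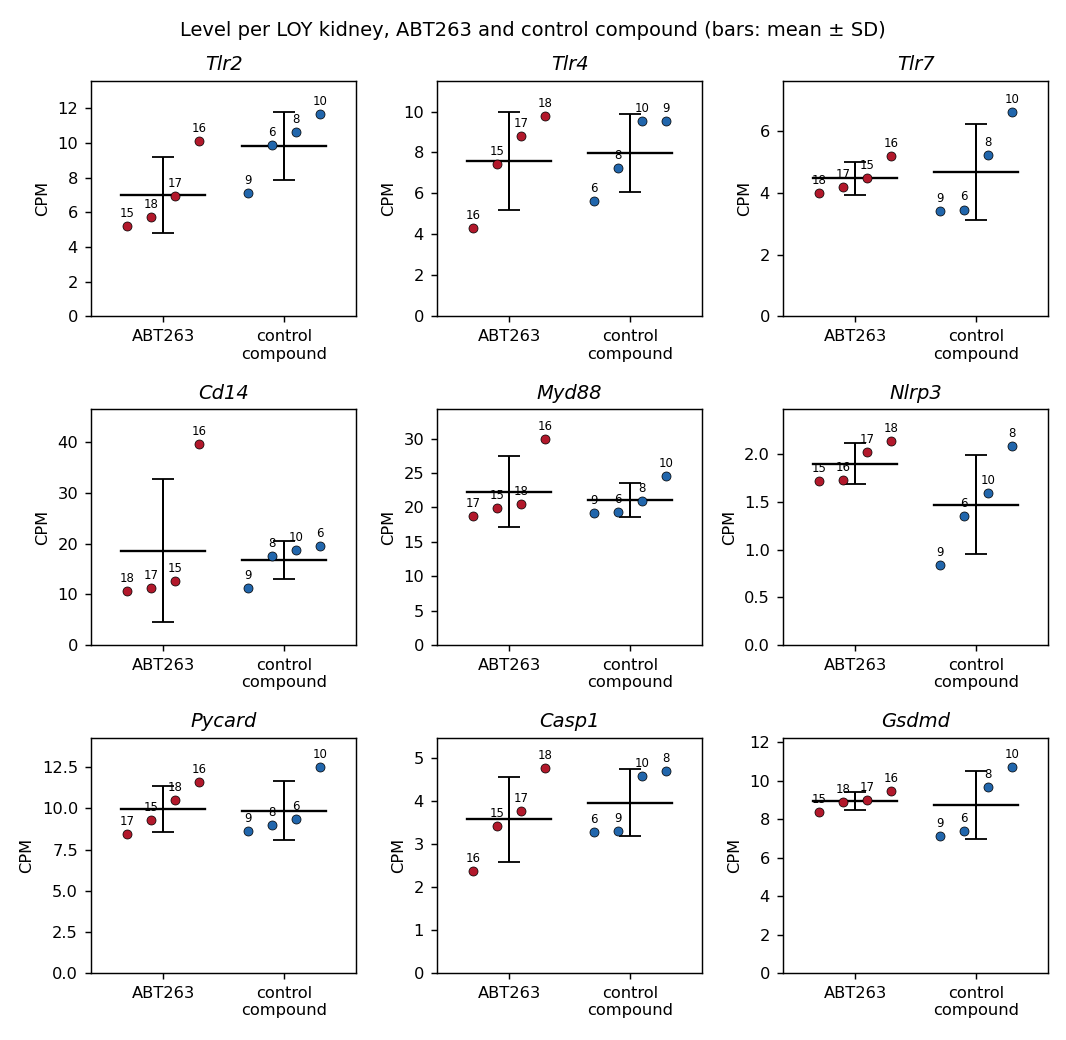
CPM of each of the 9 genes in LOY kidneys with ABT-263 (red, left) and with the control compound (blue, right), 4 each; points are numbered by animal, the horizontal bar is the mean and the whiskers are ± SD. Groups overlap in every panel, and ABT-263 animal 16 sits far above the other 7 kidneys for Cd14.

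Tlr2 had 5.21, 10.1, 6.94 and 5.73 CPM with ABT-263 (animals 15, 16, 17 and 18), against 9.86, 10.6, 7.14 and 11.7 CPM with the control compound (animals 6, 8, 9 and 10). With ABT-263, 3 kidneys were below every control-compound kidney, and animal 16 lay within the control-compound range. Its log2 fold change was -0.49 ± 0.23 (edgeR unadjusted p = 0.0581, adjusted p = 0.827; 95% interval of the fold 0.502 to 1.01). Tlr4 had 7.45, 4.33, 8.80 and 9.80 CPM with ABT-263, against 5.63, 7.26, 9.54 and 9.52 CPM with the control compound. Tlr7 had 4.48, 5.20, 4.19 and 4.0 CPM with ABT-263, against 3.46, 5.22, 3.42 and 6.63 CPM with the control compound. For Tlr4 the lowest and the highest kidney were both ABT-263 kidneys, and for Tlr7 all ABT-263 kidneys lay within the control-compound range. The 95% intervals of the fold were 0.639 to 1.41 for Tlr4 and 0.658 to 1.38 for Tlr7.

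Cd14 had 12.7, 39.8, 11.3 and 10.6 CPM with ABT-263 (animals 15, 16, 17 and 18), against 19.5, 17.6, 11.3 and 18.8 CPM with the control compound (animals 6, 8, 9 and 10). Animal 16 was above all other kidneys, and animals 17 and 18 were below every control-compound kidney. The log2 fold change of 0.14 ± 0.45 (edgeR adjusted p = 0.972) was -0.54 without animal 16 (unadjusted p = 0.0157, adjusted p = 0.472). It was -0.0029 without control-compound animal 9, so no direction can be given for Cd14. Myd88 had 20.0, 29.9, 18.7 and 20.5 CPM with ABT-263, against 19.4, 20.9, 19.3 and 24.6 CPM with the control compound. Here too animal 16 was highest, and its log2 fold change was 0.08 ± 0.16 with it and -0.093 without it (95% interval of the fold 0.832 to 1.34 with it). In animal 16 the tubular injury sum was 21113 CPM, beside 1776 to 2545 CPM in the other ABT-263 kidneys and 2647 to 3999 CPM with the control compound. Its proximal tubule sum was the lowest of the table (9295 CPM).

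Nlrp3 had 1.71, 1.73, 2.02 and 2.14 CPM with ABT-263, against 1.35, 2.09, 0.840 and 1.6 CPM with the control compound. Control-compound animal 8 was within the ABT-263 values and the other 3 control-compound kidneys were below them, at 26 to 39 counts per kidney with ABT-263 and 14 to 44 with the control compound, with a log2 fold change of 0.36 ± 0.30 (edgeR adjusted p = 0.869; 95% interval of the fold 0.811 to 2.03). Pycard had 9.30, 11.6, 8.44 and 10.5 CPM with ABT-263, against 9.33, 8.97, 8.64 and 12.5 CPM with the control compound. Casp1 had 3.43, 2.37, 3.78 and 4.76 CPM with ABT-263, against 3.29, 4.70, 3.30 and 4.59 CPM with the control compound. Pycard groups covered nearly the same range, while for Casp1 the lowest and the highest kidney were both ABT-263 kidneys, with 95% intervals of the fold of 0.782 to 1.3 for Pycard and 0.615 to 1.32 for Casp1. Gsdmd had 8.37, 9.48, 9.01 and 8.90 CPM with ABT-263, against 7.40, 9.68, 7.14 and 10.7 CPM with the control compound. Its ABT-263 kidneys were the more tightly grouped and lay inside the control-compound range (95% interval of the fold 0.795 to 1.31).

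Of the 74 other pathway genes, 71 were tested in the ABT-263 table, and 0 passed edgeR, DESeq2 or voom. At an unadjusted p under 0.05, 6 were lower with ABT-263 and 0 higher, beside 2.96% lower and 2.95% higher among all genes, and the median log2 fold change was -0.08. Of the 71 genes, 48 had a negative value and 23 a positive one, beside 49.4% positive among all genes. The 5 genes that rose in LOY against Control were among the 48: Tlr1 -0.28 ± 0.24, Ly86 -0.36 ± 0.23, Unc93b1 -0.29 ± 0.11, Casp4 -0.41 ± 0.24 and Il1b -0.55 ± 0.34. Their edgeR adjusted p lay between 0.75 and 0.877, and the difference between the comparisons, made in separate tables, was not tested. The smallest p of the lists belonged to Tnfaip3, the A20 inhibitor of NF-kB (11.6 ± 1.26 CPM with ABT-263 and 16.9 ± 3.69 CPM with the control compound; -0.54 ± 0.17, adjusted p = 0.662), and to Hsp90b1, the chaperone gp96 of the Toll-like receptors (-0.28 ± 0.09, adjusted p = 0.688). Serpinb1a, an inhibitor of inflammatory proteases, had -0.42 ± 0.14 (adjusted p = 0.728), Tab2, a kinase adaptor, -0.22 ± 0.10 (adjusted p = 0.827), and Mndal -0.40 ± 0.19 (adjusted p = 0.827). Aim2, a sensor of cytosolic DNA, had -0.45 ± 0.25 (adjusted p = 0.847), and Ninj1, which ruptures the membrane of dying cells, had -0.14 ± 0.08 (adjusted p = 0.847).

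Macrophage markers summed to 489 to 538 CPM with ABT-263 and 515 to 815 CPM with the control compound. Of the 14 markers 13 were negative and 1 positive, beside 49.4% positive among all genes. By edgeR 5 were lower at an unadjusted p under 0.05, beside 2.96% of all genes, and 0 passed the threshold, beside 0% of all genes. T cell markers summed to 11.0 to 15.4 CPM with ABT-263 and 11.8 to 28.8 CPM with the control compound. B cell markers summed to 2.85 to 3.52 CPM with ABT-263 and 4.19 to 5.28 CPM with the control compound, without overlap. Of these 6 markers 3 had too few counts for a test. Cd79a had 0.385 ± 0.0876 CPM with ABT-263 and 1.19 ± 0.253 CPM with the control compound (-1.63 ± 0.35, edgeR adjusted p = 0.536). Cd79b had -0.26 ± 0.28 (edgeR adjusted p = 0.909), and Ms4a1 was positive at 0.21 ± 0.42 (adjusted p = 0.96). Neutrophil markers summed to 3.73 to 6.07 CPM with ABT-263 and 4.29 to 8.69 CPM with the control compound, and plasmacytoid dendritic cell markers to 5.28 to 9.43 CPM with ABT-263 and 4.08 to 13.6 CPM with the control compound. Ly6g, Cxcr2, Retnlg, Camp, Mpo and Siglech were at 0 in some kidneys of this table. Endothelial markers summed to 304 to 477 CPM with ABT-263 and 336 to 395 CPM with the control compound, and mesenchymal markers to 347 to 766 CPM with ABT-263 and 271 to 541 CPM with the control compound. The part of these cells in the values of the 9 genes was not tested.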

How the data were processed

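Kidney RNA gave 20 libraries, 6 LOY and 6 Control in 1 table and 4 ABT-263 and 4 control-compound LOY animals in another; the labels do not say whether a number used in both tables is the same mouse. The values the authors deposited are whole-number counts per gene. The submitters' processing notes name the build mm10. Which aligner, counting program, annotation and strand option they used is not given in the sources used here. Per the labels' protocols, QIAzol and a column kit were used for extraction and an Illumina NovaSeq X for sequencing. Totals were 13332563 to 19386408 counts per kidney in the LOY table and 14587809 to 20791633 in the ABT-263 table, and every deposited sample column was used. Reads without a gene (0.223% to 0.401% of the LOY table) were left out, and symbols there that looked like dates (25) were kept as they were. The lowest ratio of replicate differences to Poisson noise was 1.89 over 30 pairs and 1.65 over 12 pairs, so no library was a repeat of another in its own group. Pairs across groups or across the 2 tables were not compared.

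Each table was fitted apart with edgeR 4.0.16 in R 4.3.3 (TMM scaling, filterByExpr at 10 counts and 15 in total, quasi-likelihood with robust spread). P-values were adjusted by Benjamini-Hochberg over all tested genes, with a threshold of 0.05. Each SE came from dividing the size of the log2 value by the root of its F statistic. DESeq2 1.42.0, limma 3.58.1 (voom, quality weights per sample) and exact two-sided permutation over 924 or 70 splits were alternatives. The p-values measure the spread between these animals, and counting error limits genes of few reads. The scripts were tested on simulated data.

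The 9 genes, the pathway lists, the marker lists and the tests were chosen with earlier results of these data known. The rule for named genes took all 9 genes, each other pathway gene past the threshold or, in a list with none, that of smallest p, the most alike gene of each of the 9 (that of Tlr2 is not reported here), and marker genes at 0. Marker genes that rose, Csf1r, Mertk, Ly6d, Ccr9, Cd79a, Cd79b, Cd36 and Tlr12 were named after their values were seen. So were Ly86, Unc93b1, Casp4, Il1b and Ms4a1 in the ABT-263 comparison. The highest and lowest marker of each list, which the rule also allowed, are not given as such. Lists were matched by symbol, with 3 older symbols resolved through RefSeq in the LOY table (Gsdme, Card19 and Adgre1). Trac was not matched there, and Ifi202b and Ngp were not matched in the ABT-263 table. Exon lengths and coordinates are from GENCODE M21.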

Additional observations from a re-analysis of the deposited data

Results flagged for a closer look

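In 52 groups of 4 to 6 kidneys, 8 held a kidney whose distance from its nearest neighbour took up most of the group's range; chance flags about 1 group in 20. Among the 9 genes these were Tlr7 in LOY animal 10 (8.16 CPM), Gsdmd in Control animal 3 (12.6 CPM), and Cd14 (39.8 CPM) and Myd88 (29.9 CPM) in ABT-263 animal 16. Among the marker sums these were the T cell markers in ABT-263 animal 15 (11.0 CPM) and Control animal 12 (8.99 CPM), both low, and the tubular injury markers in ABT-263 animal 16 (21113 CPM) and Control animal 3 (3537 CPM), both high.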

How the results depend on the processing

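Of 14978 genes, 176 passed for LOY against Control. The count was 105 with library totals alone, 866 with DESeq2, 1062 with voom, 549 at an adjusted p of 0.1, 0 by exact permutation (3383 at an unadjusted p; the smallest p it can give, 0.00216, leaves little room for a call after adjustment), 451 among animals numbered above 10 and 0 with animal number as a term (1194 at an unadjusted p). With no filter on low counts 130 of 20979 genes passed. Leaving out each kidney gave 0 to 607. The count was 607 without Control animal 3, 3 without 11, 2 without 12, 9 without 13 and 0 without 16 or 17. It was 188 without LOY animal 5, 223 without 8, 96 without 9, 1 without 10, 116 without 14 and 296 without 18. For the 9 genes the count of 0 became 5 with DESeq2, voom or an adjusted p of 0.1 and 2 among animals numbered above 10, and 0 to 3 on leaving out each kidney, 3 without Control animal 3 and 1 without LOY animal 5. For the other pathway genes the count of 5 became 1 with totals alone, 10 with DESeq2, 12 with voom, 3 with no filter, 9 at an adjusted p of 0.1, 0 by exact permutation, 0 with animal number as a term and 8 among animals numbered above 10 (7 higher, 1 lower). It was 0 to 9 on leaving out each kidney. Without LOY animals 8 and 10, chosen after seeing the data, 29 genes, 0 of the 9 and 0 other pathway genes passed. Tlr4 turned to -0.085 with animal number as a term, -0.26 among animals numbered above 10 and -0.048 without LOY animals 8 and 10. The log2 fold changes of the other 8 genes were positive in all 24 alternatives run.

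For ABT-263, 0 genes became 44 with DESeq2, 11 with voom and 0 to 9 on leaving out each kidney (9 without control-compound animal 6, 3 without ABT-263 animal 16 and 1 without 18). With voom Cd14 turned to -0.31, Myd88 to -0.069, Pycard to -0.057 and Gsdmd to -0.045, and with exact permutation Cd14 to -0.070. On leaving out each kidney the log2 fold changes were -0.22 to 0.12 for Tlr4, -0.19 to 0.14 for Tlr7, -0.54 to 0.33 for Cd14, -0.093 to 0.17 for Myd88, -0.068 to 0.15 for Pycard, -0.32 to 0.0049 for Casp1 and -0.053 to 0.14 for Gsdmd. Tlr2 was negative and Nlrp3 positive in all 17 alternatives run. The cause of these changes was not tested, and 6 to 23 counts of Nlrp3 per LOY kidney limit its precision. No paired analysis was possible because the groups compared share no animal numbers.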
